A study of Mus musculus with 16 samples.

Results

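The genes of hepatic de novo lipogenesis, the making of new fatty acids from acetyl-CoA, were followed across the livers of 16 mice. A fixed list of 10 genes was used: Srebf1, Mlxipl, Acly, Me1, Acaca, Acacb, Fasn, Thrsp, Elovl6 and Scd1. They were matched by gene symbol, and all 10 were found among the 24082 genes measured and among the 12522 genes with enough reads to be tested. The rule uses gene symbols alone, and the list was drawn up with earlier results of these data known.

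In this pathway citrate exported from mitochondria is cleaved to acetyl-CoA, which is carboxylated to malonyl-CoA and joined into palmitate with NADPH as reductant. Palmitate is then lengthened and given a double bond. In the liver the pathway is known to be driven after feeding by insulin through the transcription factor SREBP-1c and by glucose through ChREBP, and it feeds the triglyceride stored in fatty liver, including that of alcohol.

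The mice were female C57BL6/J, aged 9 to 11 weeks, and liver RNA of 4 mice in each of 4 groups was sequenced. Pair vehicle and Pair IMC mice were pair-fed a liquid diet in which maltose dextrin replaced the calories of ethanol, and EtOH vehicle and EtOH IMC mice drank a diet in which ethanol rose to 6% vol/vol, over 25 days. Iodomethylcholine (IMC), an inhibitor of the bacterial choline TMA lyase that makes trimethylamine in the gut, was mixed into the diet of the IMC groups at 0.06% wt/wt, and the vehicle groups received the diet without it. Ethanol and pair-fed diets differ in carbohydrate as well as ethanol, and mice given both ethanol and IMC are described as eating less. Pair feeding ties the intake of pair-fed mice to that of ethanol-fed mice. Body weight is also marked as different between pair-fed mice with and without IMC. Ethanol, carbohydrate, intake and IMC therefore cannot be told apart in these groups, nor can IMC, intake and body weight among pair-fed mice.

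Each library held between 9632659 and 12601199 reads on genes. Values are normalized read counts, that is reads divided by a size factor and brought to 1 scale over all 16 libraries, and a log2 fold change is a difference between group means of log2(normalized count + 1). A gene is called where its adjusted p-value in limma is under 0.05. Libraries carry the numbers 1 to 16: Pair IMC (2, 4, 6 and 8) and EtOH vehicle (1, 3, 5 and 7) hold the low numbers, Pair vehicle (10, 12, 14 and 16) and EtOH IMC (9, 11, 13 and 15) the high ones. The effect of IMC within a diet and the effect of ethanol within vehicle or IMC mice therefore coincide with low against high numbers, and so does the difference of the IMC effect between diets, so that these cannot be told apart from number block, whereas IMC averaged over both diets and ethanol averaged over both treatments do not. All pair-fed libraries have even and all ethanol-fed libraries odd numbers, so every ethanol comparison, averaged or not, coincides with odd against even. Whether the numbers stand for separate handling is not stated. All 10 hepatocyte markers examined were tested, and their summed normalized count ran from 1237360 to 1856120 in Pair vehicle, 1686040 to 1838960 in Pair IMC, 1076840 to 1230090 in EtOH vehicle and 1067160 to 1358140 in EtOH IMC. Most of this sum was Alb, with a mean of 1105850 of 1452670 in Pair vehicle. Hnf4a was called higher with IMC in both diets (means 8587 to 14093 pair-fed, 7982 to 12232 ethanol-fed). Fgb was called lower with ethanol in vehicle mice (63105 to 39438). The summed count of 10 adipocyte markers was lower with IMC, at 2770 to 9554 against 12308 to 22132 in pair-fed mice and 2598 to 5838 against 19798 to 21855 in ethanol-fed mice. That sum was nearly all Car3, which hepatocytes also express, while Adipoq had at most 11 reads in any library, Plin1 at most 9 and Lep at most 2, and Ucp1 had 0 in all. Summed stellate cell markers (8 of 8 tested) were also lower in EtOH IMC, at 3262 to 4397, than in EtOH vehicle, at 5689 to 6743. The largest falls in mean were those of Ecm1 (1532 to 688) and Reln (949 to 399), while Des alone was higher (70.5 to 104, not called). Pancreatic acinar markers, 4 of 8 at 0 in all libraries, were at 77.4 to 99 in Pair IMC and 92.7 to 126 in EtOH vehicle against 127 to 156 in Pair vehicle. Erythroid markers (4 of 6 tested) were at 50.4 to 134 in EtOH IMC against 216 to 390 in Pair IMC, with Hba-a1, Hbb-bs, Hbb-bt and Alas2 called lower. Markers of T, B and neutrophil cells (3 of 10 tested) were at 42.8 to 61.9 in Pair IMC and 35.1 to 63.3 in EtOH vehicle against 64.2 to 105 in Pair vehicle, and those of sinusoidal endothelium (8 of 8 tested) at 4108 to 4593 in EtOH vehicle against 3478 to 4102 in Pair vehicle. Kupffer cell and cholangiocyte sums overlapped in each of these comparisons. The part of these markers in the results was not tested. In whole liver, fewer cells of a type and less RNA per cell cannot be told apart.

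Lipogenic transcripts took between 0.434% and 3.48% of all reads of a library. The mean share was 1.45% ± 0.249 (SD, n = 4) in Pair vehicle, 2.71% ± 0.927 in Pair IMC, 1.06% ± 0.136 in EtOH vehicle and 0.634% ± 0.178 in EtOH IMC. Most of this was Scd1 alone, the desaturase, with a mean of 1.14%, 2.39%, 0.661% and 0.362% of reads in the same order.

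With IMC, Scd1 was called higher in pair-fed and lower in ethanol-fed mice, and no other member was called in both diets. In pair-fed mice Scd1 and Me1 rose with IMC and Srebf1 fell. These are 2 of 10 called higher, where 4.32% of all genes tested were, and 1 of 10 called lower, where 5.17% were, and the median log2 fold change was 0.15 over the 10 genes and -0.00088 over all genes. In ethanol-fed mice 6 of the 10 fell with IMC, namely Thrsp, Acly, Scd1, Acacb, Fasn and Mlxipl, against 11.1% of all genes called lower. None rose, against 10.4% of all genes called higher, and 4 to 6 of the 10 were called by edgeR and DESeq2 with or without library 15. The median log2 fold change was -0.59 over the 10 genes and -0.0015 over all genes.

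The difference between these effects, ethanol-fed minus pair-fed, was negative in 9 of the 10, with a median of -0.80 against -0.0013 over all genes. It passed the adjusted threshold in Scd1 and Acly, 2 of 10 called lower where 0.791% of all genes were, and in 0 called higher where 0.319% were. Both calls stood close to the threshold. The Scd1 call was kept in 3 and the Acly call in 2 of the 16 fits that each left out 1 library, and 0 to 1 members were then called. The adjusted p of Scd1 ranged from 0.0129 to 0.0908 over those fits and that of Acly from 0.0139 to 0.103. Averaged over both diets, IMC lowered Thrsp, Srebf1 and Acly, 3 of 10 against 14% of all genes, and raised Me1, 1 of 10 against 14.1%. Without library 12, 4, 5, 6 or 7 that count of 4 was 2, and the Acly and Me1 calls were each lost in 10 of the 16 fits. None of these 4 genes was called in both diets, so the average is not an effect shown in each. In pair-fed and ethanol-fed mice the changes were -0.16 and -1.68 for Thrsp and 0.17 and -0.97 for Acly. They were -0.79 and -0.23 for Srebf1 and 0.72 and 0.13 for Me1.

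**Figure D1:**
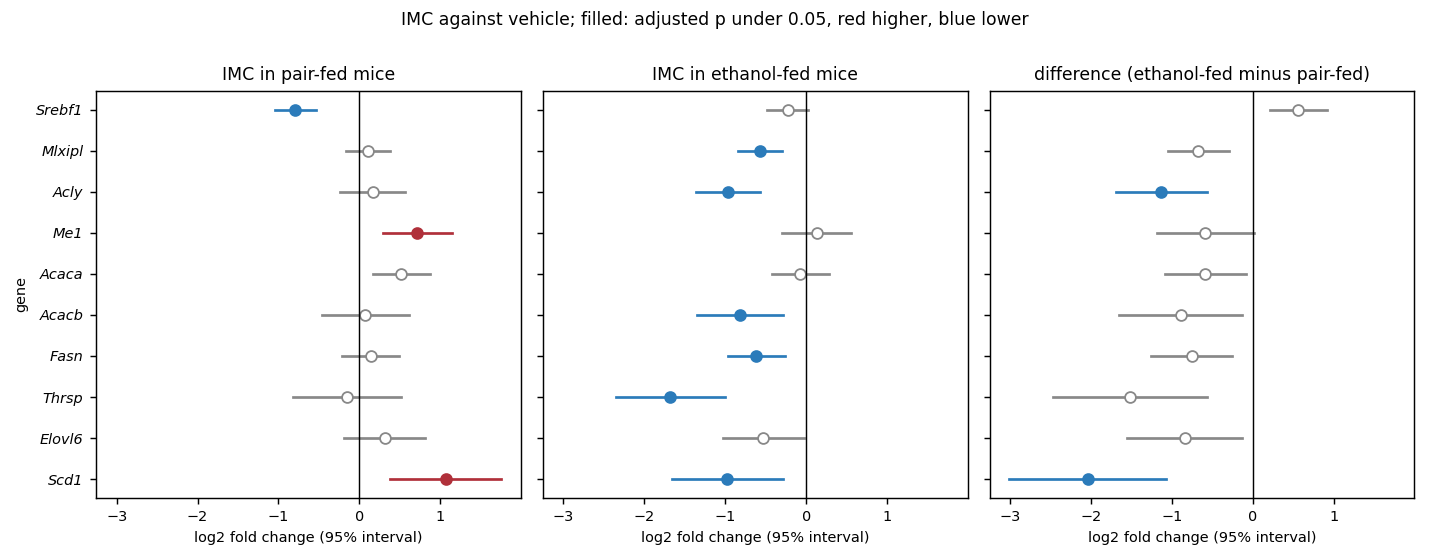
Log2 fold changes of IMC against vehicle (x axis, with 95% intervals) for each lipogenic gene (y axis) in pair-fed mice, in ethanol-fed mice, and for the difference between them. Filled points passed an adjusted p of 0.05 in limma, red higher and blue lower: in ethanol-fed mice 6 of 10 points are filled and all lie below 0, and in the difference 9 of 10 points lie below 0.

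With ethanol, 1 of the 10 was called among vehicle mice and 7 among IMC mice. The test of the difference between these effects is the one given above for IMC between diets, which passed in Scd1 and Acly and not in the other members. Among vehicle mice 0 of 10 were called lower, against 5.56% of all genes. Fasn alone passed the threshold, 1 of 10 called higher against 6.35%. This count depended on the fit: it was 0 without library 14 or 7, and 2 without library 16, 2, 8, 1, 3, 5, 9 or 11. It was 5 on the deposited values before rescaling, on which ethanol shifted the median of all genes by 0.18, with Srebf1, Mlxipl, Acly and Thrsp added to Fasn. Under IMC, ethanol was associated with lower Scd1, Me1, Acacb, Acly, Acaca and Mlxipl, 6 of 10 against 8.61% of all genes, and with higher Srebf1, 1 of 10 against 7.87%. That count of 7 was 3 without library 15. Averaged over both treatments, ethanol lowered Scd1, Me1 and Acaca, 3 of 10 against 13.2%, and raised Srebf1, 1 of 10 against 13%. All of these were called among IMC mice and none among vehicle mice, where Acaca was at -0.07 against -0.65 among IMC mice. The averaged change of Acaca was -0.36 (adjusted p = 0.0342), and its call was lost in 10 of the 16 fits without a library (adjusted p up to 0.0736), in edgeR (0.0635), without the mean-variance trend (0.0577) and on deposited values, where the change was -0.17 (adjusted p = 0.271). The IMC and the ethanol comparisons share groups, and their values below are each comparison's own.

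**Figure D2:**
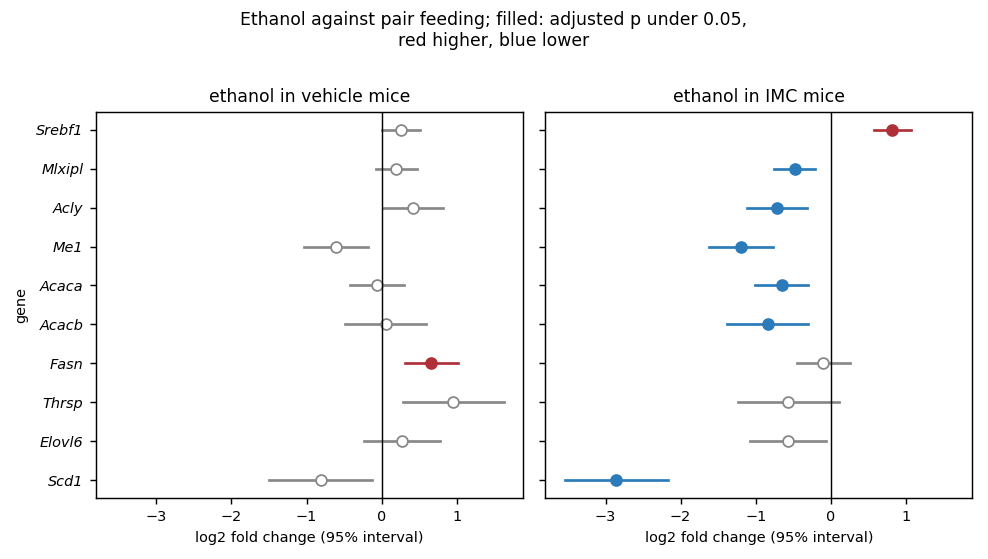
Log2 fold changes of ethanol against pair feeding (x axis, with 95% intervals) for each lipogenic gene (y axis), in vehicle mice and in IMC mice. Filled points passed an adjusted p of 0.05 in limma, red higher and blue lower: 1 of 10 is filled in vehicle mice (Fasn) and 7 of 10 in IMC mice, where Scd1 lies lowest at -2.86.

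Srebf1 and Mlxipl encode the transcription factors of the pathway. Srebf1 (ENSMUSG00000020538, chr11:60199089-60222581, minus strand, GRCm38) gives rise to SREBP-1c and SREBP-1a, which a gene-level count does not separate. Its normalized counts in Pair vehicle were 2595, 2692, 2673 and 2700, and in Pair IMC 1380, 1867, 1485 and 1465. All 4 IMC mice lay below all 4 vehicle mice, and Srebf1 was 1.73-fold lower (log2 fold change -0.79 ± 0.12, SE, adjusted p = 0.000821). In EtOH vehicle it had 2920, 3751, 2779 and 3357, and in EtOH IMC 2235, 2976, 3224 and 2525. The ethanol-fed groups overlapped, and the log2 fold change with IMC was -0.23 ± 0.12 (adjusted p = 0.183). The difference of 0.56 between diets was the only positive one of the 10 and had an adjusted p of 0.115. Srebf1 was the only lipogenic gene called higher with ethanol among IMC mice (1.76-fold, log2 fold change 0.82 ± 0.12, adjusted p = 0.000302), and all EtOH IMC mice lay above all Pair IMC mice. Its exons overlap those of Rai1 on the opposite strand, which had a mean normalized count of 153 against 2539 for Srebf1, and whether reads were counted by strand is not stated.

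Mlxipl (ENSMUSG00000005373, chr5:135089890-135138382, plus strand) encodes ChREBP, the carbohydrate-responsive factor. In Pair vehicle its normalized counts were 4958, 4791, 3584 and 3415, and in Pair IMC 4234, 4392, 4503 and 4634. Vehicle mice spread to either side of the IMC mice (log2 fold change 0.10 ± 0.13, adjusted p = 0.654). In EtOH vehicle they were 4559, 5841, 4236 and 4394, and in EtOH IMC 2824, 3649, 3390 and 2922. Here the groups did not overlap, and Mlxipl fell by 0.57 on the log2 scale with IMC (SE 0.13, adjusted p = 0.00475), which is 1.48-fold lower. Among IMC mice, Mlxipl was 1.40-fold lower with ethanol (adjusted p = 0.0168). This call was lost without library 9 (adjusted p = 0.0505) or 15 (adjusted p = 0.0529). It was also lost on deposited values, whose scale differs between diets, with a log2 fold change of -0.29 (adjusted p = 0.099).

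**Figure D3:**
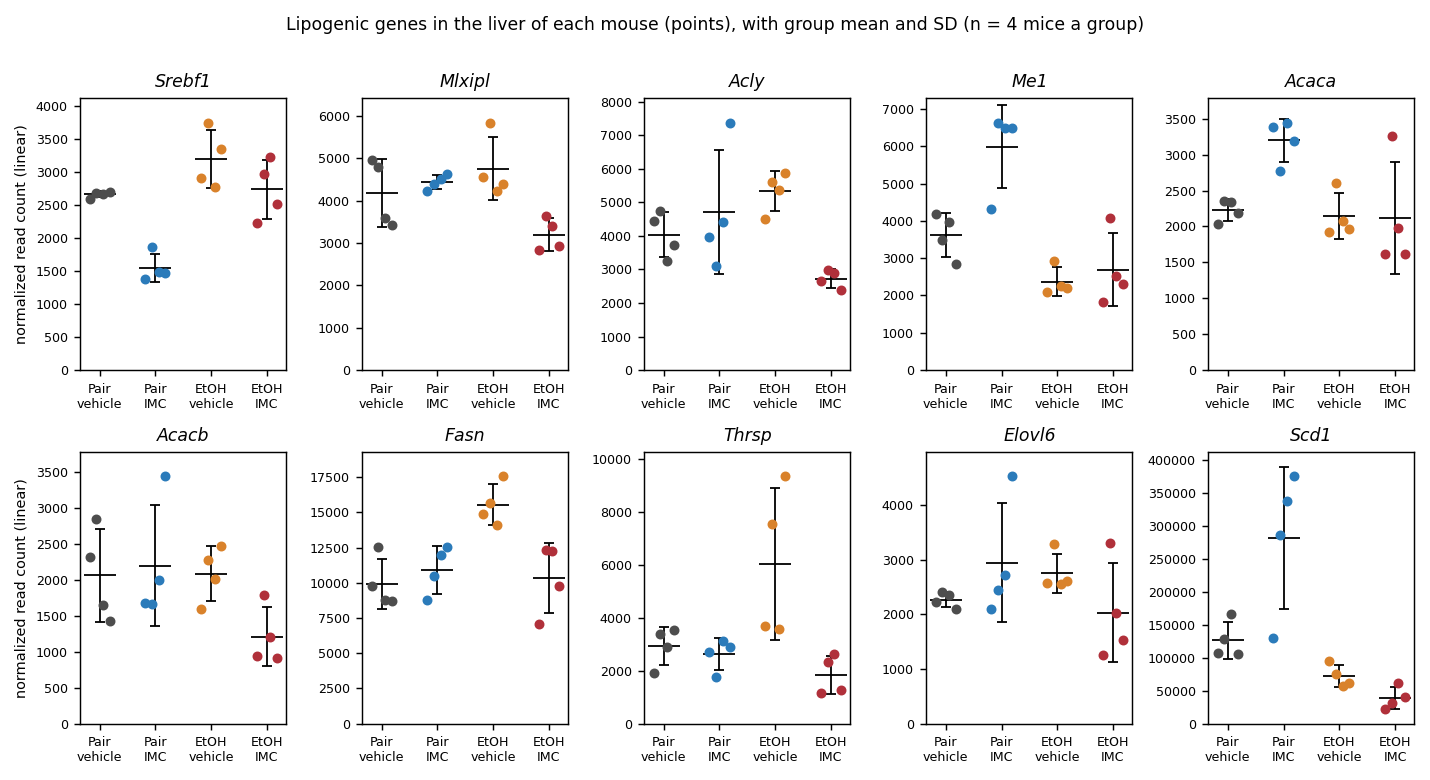
Normalized read count (y axis, linear, from 0) of each lipogenic gene in each of the 16 mice (points), by group, with the mean and SD of the 4 mice. Srebf1 sits lowest in Pair IMC and Thrsp highest in EtOH vehicle, where it ranges from 3561 to 9332, and Scd1 ranges from 22160 to 375108.

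Acly and Me1 supply the substrates. Acly (ENSMUSG00000020917, chr11:100476353-100528000, minus strand) encodes ATP citrate lyase, which releases acetyl-CoA from citrate. Its normalized counts in Pair vehicle were 4435, 4731, 3250 and 3729, and in Pair IMC 3982, 3105, 4420 and 7377. These groups overlapped, with 1 IMC mouse, library 8, far above the rest (log2 fold change 0.17 ± 0.19, adjusted p = 0.624, and -0.07 without that library). EtOH vehicle had 4512, 5610, 5366 and 5879, and EtOH IMC 2660, 2992, 2881 and 2378. All EtOH IMC mice lay below every other mouse of the study, and Acly was 1.96-fold lower with IMC among ethanol-fed mice (log2 fold change -0.97 ± 0.19, adjusted p = 0.00193). The effect of IMC differed between diets by -1.13 ± 0.27 (adjusted p = 0.0493). With ethanol among IMC mice Acly was 1.65-fold lower (adjusted p = 0.0157, and 0.0519 without library 15).

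Me1 (ENSMUSG00000032418, chr9:86581371-86695953, minus strand) encodes cytosolic malic enzyme, a source of NADPH. It had normalized counts of 4196, 3488, 3959 and 2838 in Pair vehicle and of 4314, 6630, 6493 and 6490 in Pair IMC. Every Pair IMC mouse lay above every Pair vehicle mouse, though library 2 only just, and Me1 was 1.65-fold higher with IMC (log2 fold change 0.72 ± 0.20, adjusted p = 0.0327). This call was lost without library 12, 16, 4, 6 or 8, with adjusted p from 0.0597 to 0.0972. The counts were 2088, 2935, 2250 and 2198 in EtOH vehicle and 1814, 4078, 2534 and 2310 in EtOH IMC. These overlapped (log2 fold change 0.13 ± 0.20, adjusted p = 0.686, and -0.09 without library 11, the highest), and Me1 was the only member whose mean log2 value was not lower with IMC under ethanol. Averaged over both treatments, Me1 was 1.87-fold lower with ethanol (adjusted p = 0.000258).

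Acaca and Acacb encode the acetyl-CoA carboxylases, ACC1 and ACC2, that make malonyl-CoA in the cytosol and at the mitochondrial surface. Acaca (ENSMUSG00000020532, chr11:84129672-84401651, plus strand) had normalized counts of 2032, 2356, 2343 and 2184 in Pair vehicle and 3384, 2775, 3446 and 3195 in Pair IMC. The groups did not overlap, yet the log2 fold change of 0.52 ± 0.17 missed the adjusted threshold (adjusted p = 0.0609). It passed in DESeq2 (0.0377), with quantile normalization (0.0419), with only the pair-fed IMC and vehicle libraries (0.0131) and without library 11 (0.00622), and not in edgeR. With ethanol Acaca was at 1918, 2609, 2081 and 1961 in vehicle mice and at 1617, 3261, 1978 and 1612 in IMC mice. Library 11 held both the highest Acaca and the highest Me1 of its group, and the IMC effect under ethanol was -0.07 ± 0.17 (adjusted p = 0.802). Acaca was 1.57-fold lower with ethanol among IMC mice (adjusted p = 0.0144, and 0.0538 without library 15). That call was lost in 3 of 29 alternative fits in all, with adjusted p up to 0.0931, and the log2 fold change was as small as -0.46.

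Acacb (ENSMUSG00000042010, chr5:114146535-114250761, plus strand) had a wider relative spread than Acaca in 3 of the 4 groups, EtOH IMC being the exception (coefficient of variation 33.5% against 36.9%). Pair vehicle had normalized counts of 2324, 2848, 1658 and 1430, and Pair IMC 1677, 1668, 2008 and 3446, with the highest value in library 8 as for Acly. In EtOH vehicle they were 1590, 2279, 2012 and 2480, and in EtOH IMC 944, 1788, 1214 and 908. Under ethanol 3 of 4 IMC mice lay below all vehicle mice, and Acacb was 1.77-fold lower (log2 fold change -0.82 ± 0.25, adjusted p = 0.029). Leaving out library 3, 5, 7, 9, 13 or 15 ended this call, with adjusted p from 0.052 to 0.0853, and it was not made in DESeq2 (0.0555). In all, 10 of 29 alternative fits lost it, with adjusted p up to 0.15. The comparison of ethanol among IMC mice, 1.80-fold lower (adjusted p = 0.0307), was likewise lost without library 6, 8, 9, 13 or 15, with adjusted p from 0.0572 to 0.105. That call was lost in 9 of 29 alternative fits in all, with adjusted p up to 0.137.

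Fasn (ENSMUSG00000025153, chr11:120805846-120824547, minus strand) encodes fatty acid synthase, the enzyme that builds palmitate. In Pair vehicle its normalized counts were 9769, 12512, 8794 and 8682, and in Pair IMC 8747, 10467, 11984 and 12516. The pair-fed groups covered almost the same range (log2 fold change 0.14 ± 0.17, adjusted p = 0.643). EtOH vehicle held 14903, 15651, 14115 and 17563, and EtOH IMC 7084, 12306, 12253 and 9756. EtOH vehicle thus lay above every mouse of every other group. Fasn was 1.58-fold higher with ethanol in vehicle mice (log2 fold change 0.66 ± 0.17, adjusted p = 0.0177, 0.0526 without library 14 and 0.0538 without library 7) and 1.53-fold lower with IMC in ethanol-fed mice (-0.62 ± 0.17, adjusted p = 0.0145). Between Pair IMC and EtOH IMC it differed by -0.10 ± 0.17 (adjusted p = 0.73).

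Thrsp (ENSMUSG00000035686, chr7:97412938-97417730, minus strand) encodes Spot 14, a small nuclear protein known to follow thyroid hormone, insulin and carbohydrate and to promote lipogenesis. Its normalized counts were 1913, 3369, 2902 and 3517 in Pair vehicle and 2688, 1754, 3123 and 2904 in Pair IMC. These groups overlapped throughout (log2 fold change -0.16 ± 0.32, adjusted p = 0.804). In EtOH vehicle they were 3696, 7522, 3561 and 9332, and in EtOH IMC 1146, 2309, 2611 and 1276. All 4 EtOH vehicle mice exceeded all other mice, libraries 3 and 7 by a wide margin. Thrsp had the largest IMC effect of the 10 genes under ethanol, 3.20-fold lower (log2 fold change -1.68 ± 0.32, adjusted p = 0.00157). With ethanol in vehicle mice the log2 fold change was 0.95 ± 0.32 and missed the threshold (adjusted p = 0.0595), though edgeR (0.0384) and DESeq2 (0.0318) on whole reads called it.

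Elovl6 and Scd1 act on the palmitate that is made. Elovl6 (ENSMUSG00000041220, chr3:129532355-129638495, plus strand) encodes the elongase that turns palmitate into stearate. It had normalized counts of 2228, 2409, 2348 and 2102 in Pair vehicle, 2093, 2443, 2722 and 4526 in Pair IMC, 2568, 3288, 2557 and 2603 in EtOH vehicle, and 1265, 3306, 2016 and 1529 in EtOH IMC. Libraries 8 and 11 were again the highest of their groups. No comparison of Elovl6 passed the threshold. The log2 fold change with IMC was 0.31 ± 0.24 in pair-fed mice (adjusted p = 0.445) and -0.53 ± 0.24 in ethanol-fed mice (adjusted p = 0.121). Without library 11 the change in ethanol-fed mice was -0.80 and was called (adjusted p = 0.0114).

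Scd1 (ENSMUSG00000037071, chr19:44394455-44407879, minus strand) encodes stearoyl-CoA desaturase 1, which makes oleate and palmitoleate. In Pair vehicle its normalized counts were 107830, 127676, 165851 and 105397, and in Pair IMC 129213, 285515, 337169 and 375108. In the pair-fed groups 3 of 4 IMC mice lay above all vehicle mice, and Scd1 was 2.10-fold higher with IMC (log2 fold change 1.07 ± 0.33, adjusted p = 0.0474). This call was kept without library 2, 9, 13 or 14 and lost in the 12 fits without any other library, with adjusted p up to 0.133. It was also lost without the filter on low values (0.105), without the mean-variance trend (0.065) and with only the libraries of the comparison (0.0894), and with quantile normalization the log2 fold change was 0.55 (adjusted p = 0.16). It was kept in edgeR (0.026) and DESeq2 (0.0105). EtOH vehicle had 95516, 75164, 57154 and 61708, and EtOH IMC 22160, 31194, 61059 and 40084. Under ethanol the direction was the opposite, 1.97-fold lower with IMC (-0.98 ± 0.33, adjusted p = 0.0407), with library 13 inside the range of the vehicle mice. That call was lost without library 1, 3, 7, 9, 11 or 15, with adjusted p up to 0.126, and also without the filter (0.097) or the trend (0.0534). The difference between diets was -2.05 ± 0.46 (95% interval -3.02 to -1.07, adjusted p = 0.0433). Ethanol among IMC mice gave the largest change of any member and comparison, 7.25-fold lower (-2.86 ± 0.33, adjusted p = 4.01e-05), and averaged over both treatments Scd1 was 3.57-fold lower with ethanol (adjusted p = 4.17e-05).

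Each pair of groups was also compared gene by gene with an exact two-sided permutation test of 4 against 4 mice, 40 tests in all. The smallest p that this allows is 0.0286, which becomes 0.0672 after Benjamini-Hochberg adjustment over the 40, so no member could pass alone. Groups did not overlap in 3 members for IMC in pair-fed mice (Srebf1 below, Me1 and Acaca above), where 14.3% of all genes did not. They did not overlap in 4 for IMC in ethanol-fed mice (Mlxipl, Acly, Fasn and Thrsp, all below), where 25.3% of all genes did not. For ethanol in vehicle mice it was 5 (Srebf1, Fasn, Thrsp and Elovl6 above, Scd1 below) against 19.0%, and for ethanol in IMC mice 5 (Srebf1 above, Mlxipl, Acly, Me1 and Scd1 below) against 19.2%.

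Levels were compared between genes as normalized count per kilobase of the longest coding transcript. Scd1 had the highest level in every group, from 7993 ± 3446 (SD, n = 4) in EtOH IMC to 58310 ± 22376 in Pair IMC, and its range did not overlap that of the next gene. Thrsp had rank 2 in every group, from 1437 ± 575 in EtOH IMC to 4720 ± 2246 in EtOH vehicle. Acaca and Acacb held the lowest 2 ranks in every group, at 138 to 336 per kilobase in mean, and overlapped each other. Between these lay Mlxipl, Me1, Fasn, Acly, Srebf1 and Elovl6. Fasn had rank 5 by mean in both pair-fed groups and rank 3 in both ethanol-fed groups, and Me1 went from rank 3 in Pair IMC to rank 7 in EtOH vehicle, although neighbours in this middle part mostly overlapped.

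Deviations from the group mean were also compared between members. After subtracting group means of log2 values, 43 of the 45 pairs of members had a Pearson r above 0 over the 16 libraries, with a median of 0.49, and 22 exceeded 0.5. Acly and Acacb were the closest pair (r = 0.84), followed by Me1 and Elovl6 (r = 0.80), and Srebf1 with Acly was the lowest (r = -0.076). The mean of the members' scaled values, as deviation from the group mean, was lowest in library 9 (-1.18) and highest in library 11 (1.16), both EtOH IMC. In Pair IMC it ran from -0.76 in library 2 to 0.82 in library 8. These correlations share libraries and their scaling, and are given as descriptions. How often other pairs of genes correlate alike was not measured, so they are not a result about the members.

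**Figure D4:**
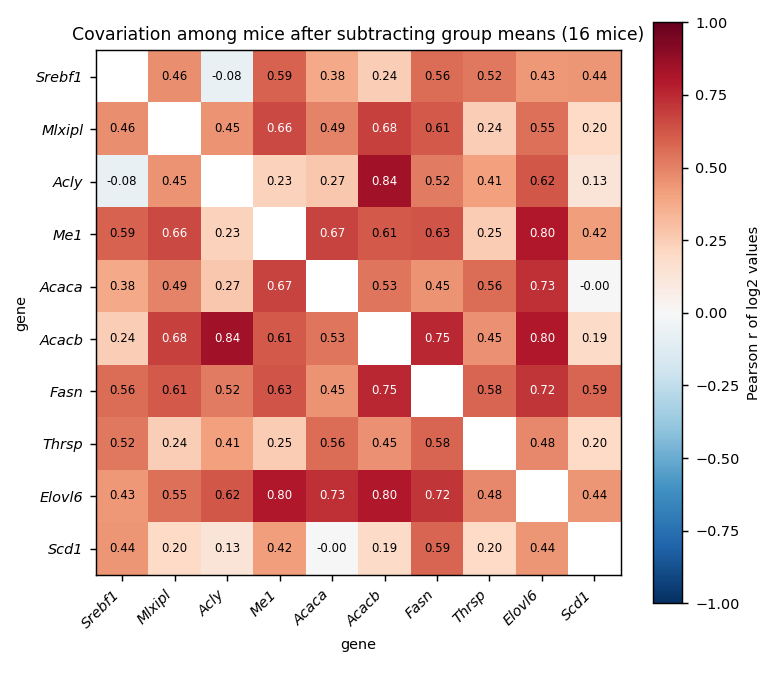
Pearson r of log2 normalized counts between lipogenic genes (both axes) over 16 mice after each group's mean was subtracted, coloured from -1 to 1 with the value in each cell. Acly with Acacb stands highest at 0.84, and 43 of 45 pairs lie above 0. The share among other pairs of genes was not measured.

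The genes outside the list whose log2 values followed the members' mean scaled value most closely over the 16 libraries were Zfp982 (r = 0.88), Dmgdh (0.86), Idh1 (0.86), Zfp983 (0.86) and Sdha (0.83). After subtracting group means they were Gch1 (0.87), Idh1 (0.85), Marf1 (0.84), Mtfr1 (0.84) and Tmem80 (0.84). Idh1, cytosolic isocitrate dehydrogenase and another source of NADPH, was in both sets.

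Promoter sequence was looked up for all members in RefSeq tables on GRCm38.p6, as 250 bases before to 50 bases after each start, and 9 of 10 members had an entry, with 13 promoters between them; Scd1 had none. The letters TCACNCCAC, a form of sterol regulatory element, were found on either strand in 1 of the 13 and in 1.24% of 32851 promoters. The E-box CACGTG was found in 1 of 13 and 7.15%, the NF-Y box CCAAT in 8 of 13 and 37.4%, and the GC box GGGCGG, the Sp1 motif, in 5 of 13 and 35.7%. Srebf1, Mlxipl and Me1 have several starts, and a match is only a description of the letters. The promoters of 4 genes that fell with IMC under ethanol are shown, with those letters on either strand in capitals. In the Fasn window, CCAAT or its complement begins at -90, -62 and -59 from the start, the last pair overlapping. In that of Thrsp it begins at -79 and -52. Acly has a CCAAT at 38 and GC boxes at -117, -88, -76 and -27, and the Mlxipl window has the sterol regulatory element at -136. That window is at the downstream one of 2 Mlxipl starts. The window at the upstream start, chr5:135089640-135089939, holds no such element, but the E-box at -98, the complement of CCAAT at -173 and GC boxes at -188 and -38.
Fasn, chr11:120824498-120824797, minus strand: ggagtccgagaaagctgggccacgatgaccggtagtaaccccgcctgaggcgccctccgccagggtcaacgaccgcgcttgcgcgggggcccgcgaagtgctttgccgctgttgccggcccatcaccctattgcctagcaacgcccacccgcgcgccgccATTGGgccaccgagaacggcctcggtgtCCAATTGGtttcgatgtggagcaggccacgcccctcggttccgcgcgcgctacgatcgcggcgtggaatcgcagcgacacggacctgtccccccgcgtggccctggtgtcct
Thrsp, chr7:97417501-97417800, minus strand: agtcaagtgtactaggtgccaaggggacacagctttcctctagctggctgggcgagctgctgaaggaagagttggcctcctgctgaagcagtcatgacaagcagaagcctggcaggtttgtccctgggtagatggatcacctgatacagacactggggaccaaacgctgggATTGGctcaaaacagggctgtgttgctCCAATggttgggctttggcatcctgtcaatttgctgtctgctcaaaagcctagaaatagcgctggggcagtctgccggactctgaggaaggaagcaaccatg
Acly, chr11:100527951-100528250, minus strand: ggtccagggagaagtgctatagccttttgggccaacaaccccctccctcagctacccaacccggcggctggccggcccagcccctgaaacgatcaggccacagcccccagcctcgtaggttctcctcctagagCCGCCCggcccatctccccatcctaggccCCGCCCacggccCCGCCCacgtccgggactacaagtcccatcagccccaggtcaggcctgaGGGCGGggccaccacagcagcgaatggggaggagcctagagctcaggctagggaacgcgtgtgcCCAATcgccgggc
Mlxipl, chr5:135106641-135106940, plus strand: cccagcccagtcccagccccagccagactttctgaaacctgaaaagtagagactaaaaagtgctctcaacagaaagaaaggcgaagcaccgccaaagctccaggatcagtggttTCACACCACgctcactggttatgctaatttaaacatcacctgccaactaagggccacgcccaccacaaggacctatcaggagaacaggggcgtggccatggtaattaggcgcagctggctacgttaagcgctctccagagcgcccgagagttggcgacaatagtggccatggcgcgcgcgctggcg

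Around the pathway, 8 further gene lists were counted, none of which holds a member. Of all genes tested, 11.1% were called lower and 10.4% higher with IMC in ethanol-fed mice. These shares were 5.17% and 4.32% with IMC in pair-fed mice, and 5.56% and 6.35% with ethanol in vehicle mice. A count near these shares is not a result about its list. Of 15 tested genes that supply acetyl-CoA, citrate and NADPH, 2 fell and 0 rose with IMC in ethanol-fed mice, the falls being near the share of all genes. They were Acss2, cytosolic acetyl-CoA synthetase (log2 fold change -1.38 ± 0.33, adjusted p = 0.00664), and Aacs, which activates acetoacetate (-0.93 ± 0.31, adjusted p = 0.0394). In pair-fed mice 1 rose with IMC, G6pdx of the pentose phosphate pathway (0.88 ± 0.26, adjusted p = 0.041), and 1 fell, Pgls (-0.53 ± 0.15, adjusted p = 0.0304). Ethanol in vehicle mice changed 0 of these 15.

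Of 15 other elongases and desaturases, 6 fell and 2 rose with IMC under ethanol, against 11.1% and 10.4% of all genes, with a list median of -0.32. The largest falls were in the polyunsaturated branch, Fads2 (-1.43 ± 0.16, adjusted p = 2.42e-05) and Elovl5 (-1.34 ± 0.17, adjusted p = 7.25e-05), and those that rose were Hacd2 (0.50) and Degs1 (0.29). In pair-fed mice 2 fell with IMC, Fads3 (-0.96) and Fads2 (-0.57), and 1 rose, Hacd2 (0.36). With ethanol in vehicle mice 3 rose, led by Scd2 (1.05 ± 0.18, adjusted p = 0.00183) and Elovl1 (0.60), and Elovl5 fell (-0.64). Scd2, a desaturase close in sequence to Scd1, thus rose where Scd1 did not pass the threshold (-0.81 ± 0.33, adjusted p = 0.112), and the reads of such close copies may not be fully separated.

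Among 25 genes of SREBP processing and co-regulators, Insig1, which retains SREBP in the endoplasmic reticulum and is itself an SREBP target, and Srebf2, which encodes the sterol-regulating SREBP-2, were the 2 that fell with IMC in pair-fed mice, as Srebf1 did. Insig1 fell by 1.06 (SE 0.17, adjusted p = 0.00148) and Srebf2 by 0.74 (SE 0.12, adjusted p = 0.00145). Under ethanol 3 fell with IMC and 3 rose, among them Insig2 (-0.85) and Insig1 (-0.61), and Pparg (0.75) and Usf2 (0.51). Both counts stand near the shares of all genes, 11.1% and 10.4%. With ethanol in vehicle mice 3 fell, led by Usf2 (-0.80 ± 0.11, adjusted p = 0.000337) and Nfyb (-0.34), and 0 rose.

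The list of 18 ChREBP-linked genes holds genes of glycolysis and fructose use and others, such as G6pc, Arrdc4 and Txnip. With IMC in pair-fed mice 4 rose and 0 fell, led by G6pc (1.46 ± 0.38, adjusted p = 0.0222) and Gpd1 (1.03 ± 0.18, adjusted p = 0.00296). In ethanol-fed mice 0 rose and 4 fell, led by Pklr, liver pyruvate kinase (-0.69 ± 0.14, adjusted p = 0.00264), and Arrdc4 (-0.65 ± 0.19, adjusted p = 0.0188). With ethanol in vehicle mice 2 rose, Eno1 (0.40) and Pfkl (0.35).

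Of 21 genes listed under glycerolipid assembly, not all of which esterify fatty acids, 6 fell and 0 rose with IMC under ethanol. The shares of all genes were 11.1% and 10.4%, and the list median was -0.19. The largest falls were in the patatin-like Pnpla3, a lipid droplet protein (-1.82 ± 0.30, adjusted p = 0.000456), and Pnpla5, which had a mean normalized count of 10.1 in EtOH vehicle and no read in any EtOH IMC library. In pair-fed mice 3 rose and 2 fell, with Gpd1 and Gpat4 (0.31) leading the rises and Acsl3 (-0.65) and Gpat3 (-0.54) the falls. In vehicle mice ethanol raised 3, led by Agpat2 (0.61) and Agpat5 (0.42), and lowered 1, Lpin2 (-0.80).

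In each of the 3 other lists 2 genes were called with IMC under ethanol, 1 in each direction, which is under the shares of all genes (10.4% higher and 11.1% lower). Of 15 genes that control acetyl-CoA carboxylase, 1 rose, Cab39 (0.29), and 1 fell, Prkag2 (-0.58), and of 20 of insulin signalling 1 rose, Rps6kb1 (0.32), and 1 fell, Pdk1 (-0.69). Pdk1 encodes a pyruvate dehydrogenase kinase rather than the insulin-pathway kinase of like name, whose gene Pdpk1, also in the list, was not called (0.14, adjusted p = 0.371). Of 13 LXR target genes 1 rose, Abca7 (0.38), and 1 fell, Pltp, the phospholipid transfer protein (-1.02). In pair-fed mice these lists had 3, 2 and 2 genes higher and 0 lower, with Prkab2 (0.79) and Cab39 (0.26), Mtor (0.49) and Rps6kb1 (0.40), and Abca7 (0.63) and Mylip (0.50) the largest. With ethanol in vehicle mice Mlycd, malonyl-CoA decarboxylase (-0.32), Irs2 (-0.96) and Gsk3a (-0.34) fell, and Scd2 and Lpl (0.46) led the 3 LXR targets that rose.

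**Figure D5:**
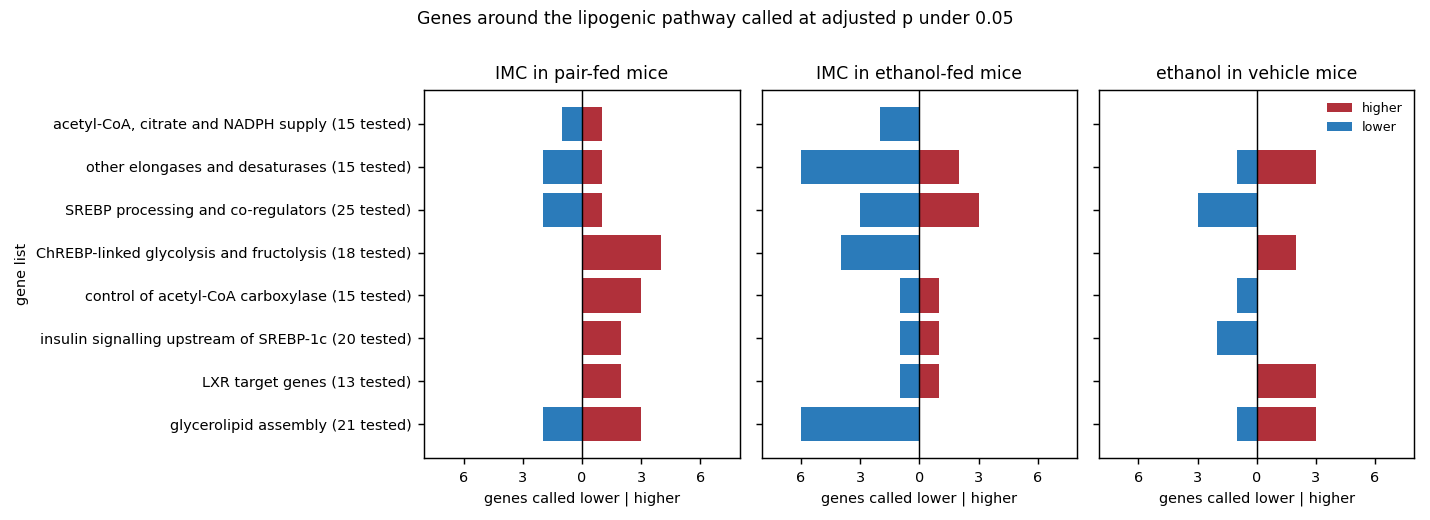
Number of genes called higher (red, right) and lower (blue, left; x axis) at an adjusted p of 0.05 in limma, for 8 lists around the lipogenic pathway (y axis, with the number tested), in 3 comparisons. With IMC in ethanol-fed mice, the elongases and desaturases and the glycerolipid list each have 6 genes lower, and ChREBP-linked genes have 4 higher in pair-fed and 4 lower in ethanol-fed mice. Of all genes, 11.1% were lower with IMC in ethanol-fed mice and 4.32% higher in pair-fed mice.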

How the data were processed

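Liver libraries were prepared by the authors with an Illumina TruSeq directional kit. Reads of 100 bases were trimmed with Trim Galore, checked with FastQC, aligned to mm10 with STAR and normalized in edgeR. The tool that counted reads, and whether it used strand, are not given in the sources used here, and the sources differ on single or paired ends. The deposited signal values are the authors' read counts divided by a size factor of each library: divided by the worth of 1 read, 100% of values were whole to within 0.01. In library 15 of EtOH IMC 1 read is worth nearly 1, at 1.01, and its values were whole to the same degree as in every other library. The 27212 rows held 24082 Ensembl genes, and repeats of a gene were identical. All 16 libraries were brought to 1 scale by a median ratio, with factors from 0.94 to 1.08.

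Genes with at least 10 in at least 4 libraries were tested with limma 3.58.1 in R 4.3.3 on log2(value + 1), fitting the 4 group means with a spread shared by all 16 libraries, a mean-variance trend and two-sided Benjamini-Hochberg adjustment over the 12522 genes. SDs are between 4 mice, and SEs are of the log2 fold change. edgeR 4.0.16 on recovered reads called 1159 genes for IMC in pair-fed and 2795 in ethanol-fed mice, against 1188 and 2694 in limma, and DESeq2 1.42.0 called 1486 and 2946. Counts without library 15 were added after seeing the data. Other alternatives were pseudocounts of 0.1 and 5, no filter, a mean of at least 100, the deposited scale, upper quartile and quantile scaling, no trend, only the libraries of a comparison, and each library left out. The code was tested on simulated data. Reads carry no molecular identifiers. Gene positions and lengths are from GENCODE vM21, and promoters from RefSeq.

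The 10 members and the other lists were chosen with earlier results of these data known. From each other list, up to 2 genes higher and 2 lower with the largest change among those called are named in each of 3 comparisons, and the 5 genes most correlated with the members are named for likeness. A single gene that 2 lists hold is named in both. A called gene of the list of SREBP processing and co-regulators is not reported here.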

Additional observations from a re-analysis of the deposited data

Results flagged for a closer look

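The effect of IMC differed between the diets in Scd1, by -2.05 on the log2 scale (ethanol-fed minus pair-fed), and in Acly, by -1.13, each past an adjusted p of 0.05 in the interaction term of limma. Their values by mouse stand in the report, with the fits in which the calls were lost.

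Within groups of 4 mice, Dixon's ratio of the gap to the range passed its 95% critical value in 2 of 40 tests, where chance passes about 1 in 20. Me1 in library 2 of Pair IMC was at 4314, below the other mice of its group at 6490 to 6630. Elovl6 in library 3 of EtOH vehicle was at 3288, above the others at 2557 to 2603.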

How the results depend on the processing

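Over all alternatives, 1794 values of single members kept their direction and their side of the threshold, 136 lost a call, 42 gained one and 28 changed sign. With 4 mice a group, members with wide spread within a group, such as Thrsp, Scd1 and Acacb, are the least precise. No paired analysis was possible because the labels do not say which mice were paired. The cause of the changes below was not tested.

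The number of members called for IMC in pair-fed mice (3) was 1 without a mean-variance trend and 1 to 3 with a library left out. For IMC in ethanol-fed mice (6) it was 4 to 6 with a library left out. For the difference between diets (2) it was 0 without the filter, 0 without the trend, 1 with quantile normalization, 0 in edgeR without library 15, and 0 to 1 with a library left out. For IMC averaged over diets (4) it was 2 without the trend and 2 to 5 with a library left out. For ethanol in vehicle mice (1) it was 5 on deposited values, which carry the offset between diets. It was 2 with quantile normalization, 3 with only the libraries of the comparison and 0 to 2 with a library left out. In edgeR it was 2 and in DESeq2 3, with or without library 15. For ethanol in IMC mice (7) it was 4 in edgeR without library 15 and 3 to 8 with a library left out, and for ethanol averaged over treatments (4) 3 to 5.

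All changes of sign were in values that were not called. On deposited values, with their offset between diets, the change with ethanol became 0.12 for Acaca in vehicle mice and 0.09 for Fasn in IMC mice. Averaged over treatments it became 0.0464 for Mlxipl, 0.0366 for Acly and 0.0407 for Elovl6. With IMC under ethanol Acaca was at 0.0094 with quantile normalization and, without library 15, at 0.095 in edgeR and 0.093 in DESeq2. With IMC averaged over diets Scd1 was at -0.23 with quantile normalization, and Elovl6, without library 15, at 0.0237 in edgeR and 0.0215 in DESeq2. With a library left out, IMC in pair-fed mice ranged from -0.0736 to 0.34 for Acly, -0.16 to 0.25 for Acacb and -0.35 to 0.0259 for Thrsp, and under ethanol from -0.094 to 0.30 for Me1 and -0.30 to 0.0396 for Acaca. Averaged over diets, IMC ranged from -0.0799 to 0.216 for Scd1. Ethanol ranged from -0.108 to 0.223 for Acacb in vehicle mice and from -0.202 to 0.0712 for Fasn in IMC mice.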
